A study of Mus musculus with 12 samples.

Results

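The RNA of 10 genes was followed that encode RNA-binding proteins and motor proteins linked to the processing and transport of myelin mRNA. They are the rows of the count table whose mouse Ensembl identifiers map to Qk, Mbnl1, Mbnl2, Hnrnpa2b1, Hnrnpa1, Celf1, Celf2, Elavl1, Kif1b and Dync1i2, and they make up 10 of the 25700 genes listed. The cells were Schwann cells (SCs) sorted from the sciatic nerve at P5, the fifth day after birth. All gates came from mice with the same transgenes, a Cre driven by a promoter active in the Schwann cell lineage, the reporter ReYFP that Cre switches on, and βAct-DsRed, which is active in every cell. The allSC gate took all eYFP-positive cells, the nmSC gate the less granular of them by side scatter (enriched in not-myelinating cells) and the mSC gate the more granular ones (enriched in myelinating cells), with 4 libraries per gate and each library from the cell suspension of 1 mouse. The gates were therefore set on granularity and not on any RNA, and each is an enrichment, not a pure cell type.

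Myelin is built far from the nucleus, so its mRNAs have to be spliced, stabilized and, for some of them, carried along microtubules before they are translated at the sheath. Qk (Quaking) is a STAR-family RNA-binding protein that controls splicing, stability and export of myelin transcripts, and mice that lose its glial expression are dysmyelinated. The muscleblind (Mbnl) and CELF proteins are splicing factors often described as acting against each other, hnRNP A2/B1 binds the transport signal of myelin basic protein mRNA, and kinesin and dynein are the motors that move cargo outward and back along microtubules.

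The sequence that Qk is known to bind is a core ACTAAC with a nearby half-site. The core alone was looked for, with no half-site required, on the transcript strand only. The search covered the 3′ UTR of 1 coding transcript per gene, the one with the longest 3′ UTR in GENCODE release M21 (build GRCm38). Of the 10 genes, 5 held at least 1 copy and 5 held none. Each copy in the genes with a higher level in mSC is printed here with 10 bases on either side, with the core in capitals. Apart from letters shared with the core, none of the printed windows, in these genes or in Egr2 below, holds a second TAAC. In the first Egr2 copy a TAAC overlaps the start of the core. Other spellings of a half-site were not looked for, and the Kif1b window holds a TAAT after its core.
Qk, first copy (chr17:10206540-10206565, minus strand, 3′ UTR): ataccaacctACTAACtctggactat
Qk, second copy (chr17:10206457-10206482, minus strand, 3′ UTR): gagttcctggACTAACactgaagaac
Celf2 (chr2:6543270-6543295, minus strand, 3′ UTR): cactcagctcACTAACagtgatcaca
Kif1b (chr4:149178752-149178777, minus strand, 3′ UTR): agtataggttACTAACtgtaatgtta
A list of myelin transcripts and described Qk targets served for comparison. In that list, outside the core, the window of Mal holds a second TAAC and that of Prx an ACTAA (neither is printed). These are the copies in Egr2 (Krox20), the transcription factor of the myelination program, from the same list.
Egr2, first copy (chr10:67541750-67541775, plus strand, 3′ UTR): tcaaaggttaACTAACttatttaaag
Egr2, second copy (chr10:67542113-67542138, plus strand, 3′ UTR): taaaaaaaccACTAACtggagttcag

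The core is a short word and long 3′ UTRs hold it more often. It was present in 17.8% of 20974 genes with a 3′ UTR, and in 24.1% of the 13829 genes whose 3′ UTR was between the shortest and the longest of the 10 (523 and 7381 bases). The 10 genes have long 3′ UTRs, with a median of 3807 bases against 1566 in that group. Per length they held 0.162 copies per kb, against 0.156 per kb over all genes and 0.251 per kb in the 14 listed myelin transcripts and Qk targets, 8 of which held a copy. The copies in Qk lie in a 3′ UTR of 7014 bases. Mbnl2 and Elavl1 held 1 copy each, and Mbnl1, Hnrnpa2b1, Hnrnpa1, Celf1 and Dync1i2 held none in this window. A match of letters describes the sequence and shows no binding.

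Depth overlapped between the gates, with 8180927 to 13077387 counted reads in nmSC, 10092477 to 14482001 in allSC and 10777161 to 16918122 in mSC. The libraries held between 8180927 and 16918122 counted reads, a floor of 3 counts stood for 0.177 to 0.367 CPM (counts scaled by the total of the library, here without and elsewhere with its TMM factor), and all 10 genes passed the filter on low counts with means of 99.8 CPM or more in every gate. The scaling of the libraries moved the differences between mSC and nmSC by a nearly shared amount. With TMM scaling the log2 fold changes of all 18597 tested genes had a median of -0.16 (mSC against nmSC), with library size without the 50 most abundant genes it was -0.53, and with library size alone it was -0.73. Library 4 of mSC stood apart from the other mSC libraries, with a chi-square per degree of freedom of 50.6 to 95.7 against them and 6.01 to 22.1 among the other 3, so results are also given without it where it changes a call.

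Between mSC and nmSC, with TMM scaling, 5 of the 10 genes passed edgeR's quasi-likelihood test at an adjusted p of 0.05, and 40.5% of all tested genes did. The RNA of Qk, Dync1i2, Celf2 and Kif1b was higher in mSC (4 of 10, where 20.4% of all tested genes were higher), and that of Hnrnpa1 was lower (1 of 10, where 20.2% were lower). Without mSC library 4 the count was 6, 4 higher and 2 lower, because Hnrnpa2b1 was then also called. The direction of the counts hangs on the scaling. With library size alone 1 gene was higher (Qk) and 6 were lower, and with library size without the 50 most abundant genes 2 were higher (Qk and Dync1i2) and 4 lower. Of all 18597 tested genes, 11864 were called with the first of these scalings and 9717 with the second. A change of scaling shifts the genes by a nearly shared amount. Relative to the median of all tested genes, the difference of each gene therefore hardly moved between these scalings, by construction. The mSC and nmSC libraries did not overlap in CPM for 6 genes, 5 of them higher in mSC and 1 lower, and 34.2% of all tested genes did not overlap. In bulk samples, fewer cells of a type and less RNA per cell cannot be told apart.

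**Figure D1:**
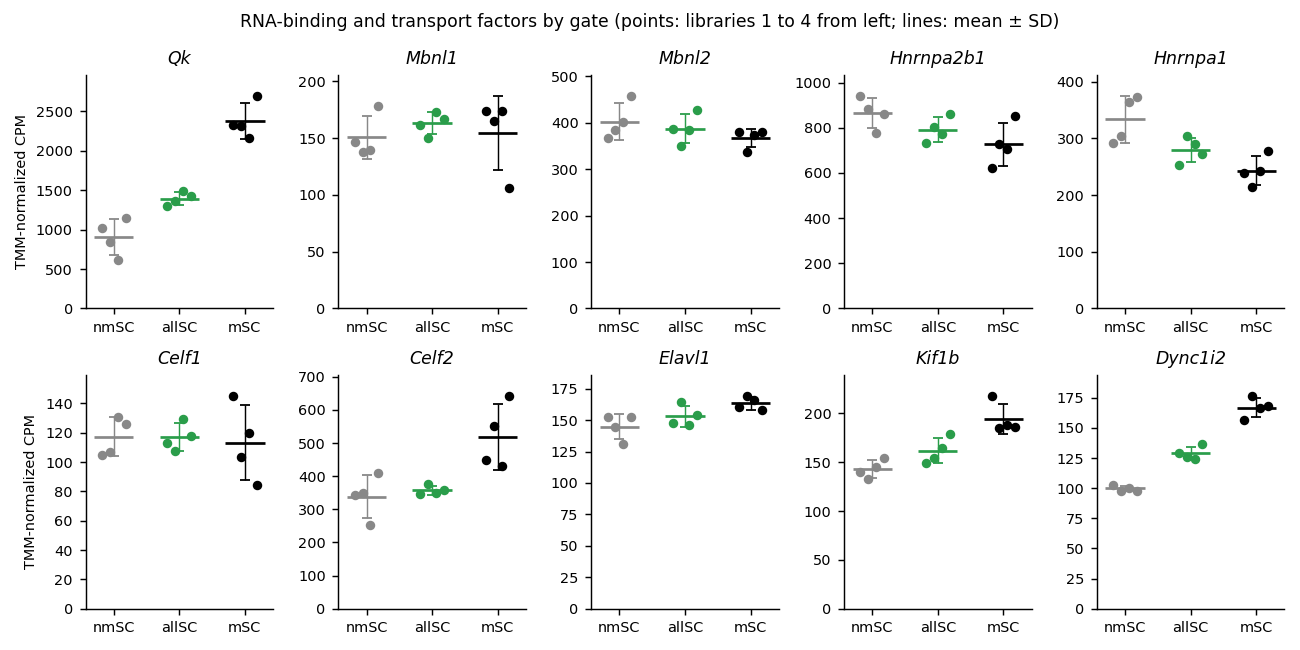
TMM-normalized CPM of each of the 10 genes (vertical axes, starting at 0) in the nmSC, allSC and mSC gates. Points are the 4 libraries of a gate in the order of the mouse number, and the lines give mean ± SD. The mSC points of Qk (2166 to 2698 CPM) and Dync1i2 (157 to 176 CPM) lie above those of both other gates, while the mSC points of Mbnl1 (106 to 174 CPM), Mbnl2 (337 to 380 CPM) and Celf1 (84.7 to 145 CPM) overlap those of both other gates and in part reach past them.

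Qk (ENSMUSG00000062078, chr17:10202601-10319854, minus strand, GRCm38) showed the widest difference of the 10 between mSC and nmSC. Its 4 mSC libraries held 2329, 2311, 2166 and 2698 CPM, the allSC libraries 1297, 1359, 1493 and 1427 CPM, and the nmSC libraries 1019, 838, 620 and 1142 CPM. The 3 gates did not overlap, with allSC between the others. The means were 2376 ± 227 CPM in mSC, 1394 ± 84.6 CPM in allSC and 905 ± 227 CPM in nmSC (SD, n = 4 each). Qk was 2.63-fold higher in mSC than in nmSC (log2 fold change 1.39, SE 0.16, edgeR quasi-likelihood test, adjusted p = 5.79e-07), higher in 4 of 4 mice. It was the gene of the 10 that kept its call in this comparison under every scaling in the upward direction, with a log2 fold change of 0.82 for library size alone. Against the median of all tested genes Qk stood 1.54 to 1.56 higher on the log2 scale in the 4 scalings.

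The remaining comparisons placed Qk on a step in each direction from allSC. Between mSC and allSC, 3 of the 10 genes passed (17.6% of all tested genes passed), all higher in mSC (8.76% of all tested genes were higher and 8.80% lower). Between allSC and nmSC, 2 of the 10 passed (10.4% of all tested genes), both higher in allSC (7.54% higher and 2.83% lower among all). Qk and Dync1i2 passed in both, and Celf2 passed between mSC and allSC. The log2 fold change of Qk was 0.77 between mSC and allSC (edgeR adjusted p = 0.0015) and 0.62 between allSC and nmSC (adjusted p = 0.0109). These comparisons share the allSC libraries, and the mean of allSC lay between the other gates for 9 of the 10 genes, as it did for 69.5% of all tested genes.

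With the other scalings the counts of these steps changed as well. With library size alone, 1 gene was higher and 3 were lower in mSC than in allSC, and 0 were higher and 3 lower in allSC than in nmSC. Qk then differed by 0.36 between allSC and nmSC and no longer passed. Without the 50 most abundant genes the counts were 1 higher and 2 lower between mSC and allSC, and 0 higher and 1 lower between allSC and nmSC. Of all 18597 tested genes, library size alone called 4400 between mSC and allSC and 2951 between allSC and nmSC. Without the 50 most abundant genes 3375 and 2155 of them were called.

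**Figure D2:**
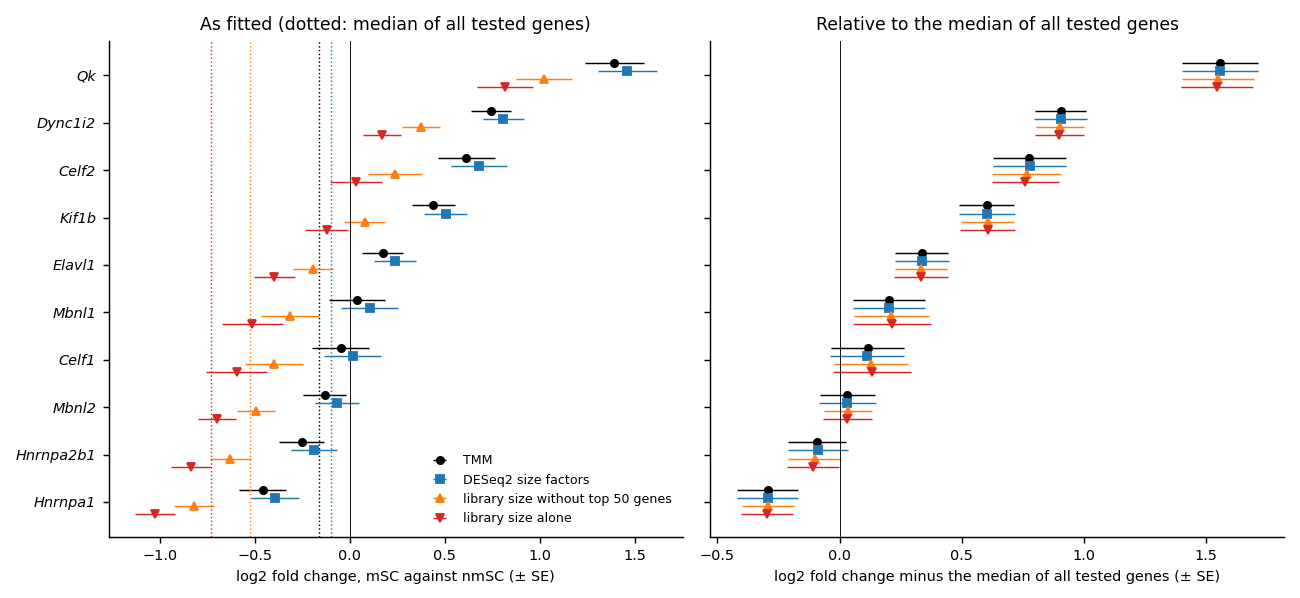
Log2 fold change of the 10 genes between mSC and nmSC (horizontal axis, ± SE) with 4 scalings of the libraries, as fitted on the left and after subtraction of the median of all tested genes on the right, with dotted lines for those medians. On the left library size alone shifts every gene down (Qk from 1.39 to 0.82, Kif1b from 0.44 to -0.12), and on the right the 4 scalings nearly coincide.

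With TMM scaling, neither muscleblind gene passed the test between mSC and nmSC. Mbnl1 (ENSMUSG00000027763, chr3:60472830-60629750, plus strand) and Mbnl2 (ENSMUSG00000022139, chr14:120275669-120431697, plus strand) encode splicing factors that are best known from myotonic dystrophy, in which expanded repeat RNA binds and depletes them. Mbnl1 was at 155 ± 32.6 CPM in mSC and 151 ± 18.9 CPM in nmSC (SD, n = 4), which gave a log2 fold change of 0.039 with a 95% interval from -0.27 to 0.35 (edgeR adjusted p = 0.849). Its mSC libraries held 174, 165, 174 and 106 CPM and its nmSC libraries 147, 138, 140 and 178 CPM. Library 4 was the lowest in mSC and the highest in nmSC. Mbnl2 was at 367 ± 20.3 CPM in mSC and 402 ± 39.7 CPM in nmSC, which gave a log2 fold change of -0.13 with an interval from -0.37 to 0.10 (edgeR adjusted p = 0.357). The ranges of Mbnl2 overlapped, with 337 to 380 CPM in mSC and 367 to 458 CPM in nmSC. Mbnl2 was called lower in mSC with library size without the 50 most abundant genes (-0.49, edgeR adjusted p = 0.000631) and with library size alone (-0.70, adjusted p = 2.06e-05). Mbnl1 turned to -0.31 with the first of these (edgeR adjusted p = 0.0897) and was called lower with the second (-0.51, adjusted p = 0.0111). Relative to the median of all tested genes, Mbnl1 stood 0.20 to 0.22 and Mbnl2 0.031 to 0.033 higher.

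The hnRNP A genes were both at a lower mean in mSC, and the test was passed by Hnrnpa1. Hnrnpa1 (ENSMUSG00000046434, chr15:103240432-103246692, plus strand) encodes a nuclear factor that represses the use of exons. Its mSC libraries held 239, 214, 243 and 278 CPM and its nmSC libraries 292, 305, 365 and 374 CPM. The gates did not overlap. The means were 243 ± 26.3 CPM and 334 ± 41.2 CPM (SD, n = 4), a log2 fold change of -0.46 (SE 0.12, edgeR adjusted p = 0.00632), 1.37-fold lower in mSC. It was called lower under every scaling, from -0.39 with DESeq2's size factors to -1.02 with library size alone, and it stood 0.29 to 0.30 lower than the median of all tested genes on the log2 scale. Its differences to allSC did not pass, at -0.20 for mSC against allSC (edgeR adjusted p = 0.279) and -0.26 for allSC against nmSC (adjusted p = 0.239). Of the 3338 words of 100 bases in the transcripts of Hnrnpa1, 25.9% also occur in 10 other genes, all of them annotated pseudogenes and none listed in the count table. How reads on such words were counted is not stated, so the level of Hnrnpa1 is less certain than that of the others.

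Hnrnpa2b1 (ENSMUSG00000004980, chr6:51460932-51469894, minus strand), which encodes the protein that binds the transport signal of myelin basic protein mRNA, was, per length, among the most abundant of the 10. Its mSC libraries held 621, 728, 704 and 852 CPM and its nmSC libraries 942, 885, 778 and 859 CPM. Library 4 of mSC reached into the nmSC range, and the other 3 mSC libraries lay below it. The log2 fold change was -0.25 (95% interval from -0.50 to -0.0038, edgeR adjusted p = 0.0961), and Hnrnpa2b1 was higher in mSC in 0 of 4 mice. Without mSC library 4 it was -0.33 and passed (edgeR adjusted p = 0.012). With all libraries it was also called lower with library size without the 50 most abundant genes (-0.63, edgeR adjusted p = 0.000167) and with library size alone (-0.83, adjusted p = 5.23e-06). Relative to the median of all tested genes Hnrnpa2b1 was 0.088 to 0.11 lower.

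Celf2 (ENSMUSG00000002107, chr2:6539694-7509563, minus strand) and Celf1 (ENSMUSG00000005506, chr2:90940382-91019497, plus strand) encode factors that bind GU-rich RNA, regulate splicing and, in the cytoplasm, mRNA decay. Celf2 held 449, 552, 430 and 642 CPM in the mSC libraries and 342, 350, 254 and 409 CPM in the nmSC libraries. The gates did not overlap, though the lowest mSC library (430 CPM) was close to the highest nmSC library (409 CPM). The allSC libraries lay between 347 and 376 CPM. Celf2 was 1.53-fold higher in mSC than in nmSC (log2 fold change 0.61, SE 0.15, edgeR adjusted p = 0.00292), and it differed by 0.53 between mSC and allSC (adjusted p = 0.0179). Between allSC and nmSC the difference of Celf2 was 0.079 (edgeR adjusted p = 0.839). With library size alone its difference between mSC and nmSC was 0.032 (edgeR adjusted p = 0.844). Relative to the median of all tested genes Celf2 was 0.76 to 0.78 higher.

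Celf1 held 145, 103, 120 and 84.7 CPM in the mSC libraries and 105, 107, 131 and 126 CPM in the nmSC libraries. The mSC libraries spread to both sides of the nmSC libraries. Celf1 had a log2 fold change of -0.048 between mSC and nmSC with a 95% interval from -0.36 to 0.26 (edgeR adjusted p = 0.814), which turned to 0.015 with DESeq2's size factors. It was called lower with library size without the 50 most abundant genes (-0.40, edgeR adjusted p = 0.0368) and with library size alone (-0.60, adjusted p = 0.00445), and stood 0.11 to 0.13 higher than the median of all tested genes in the 4 scalings. The transcripts of Celf2 share 1961 exon bases with Gm26565, a long non-coding gene on the opposite strand that is not in the count table.

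Elavl1 (ENSMUSG00000040028, chr8:4285382-4325413, minus strand) encodes HuR, which binds AU-rich elements and stabilizes mRNA. Its mSC libraries held 160, 169, 166 and 158 CPM and its nmSC libraries 152, 144, 131 and 152 CPM. The gates did not overlap, and Elavl1 was higher in mSC in 4 of 4 mice. The log2 fold change was 0.17 (SE 0.11, 95% interval from -0.051 to 0.40), which edgeR did not call (adjusted p = 0.202). DESeq2's Wald test called it (log2 fold change 0.24, adjusted p = 0.0365), and the sign turned with library size without the 50 most abundant genes (-0.19, edgeR adjusted p = 0.13). Elavl1 was called lower in mSC with library size alone (-0.40, edgeR adjusted p = 0.00563). Elavl1 shares 204 exon bases with Ccl25 on the opposite strand, and the strand setting of the counting is not stated.

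The motor genes were both higher in mSC with TMM scaling. Dync1i2 (ENSMUSG00000027012, chr2:71211706-71263303, plus strand) encodes an intermediate chain of cytoplasmic dynein, the part of the motor that binds dynactin and cargo. Its mSC libraries held 157, 176, 166 and 168 CPM, the allSC libraries 129, 126, 124 and 137 CPM, and the nmSC libraries 103, 97.9, 100.4 and 98.0 CPM. The 3 gates did not overlap, and the spread within nmSC was the smallest of the 10 genes at 2.37% of the mean (coefficient of variation). Dync1i2 was 1.67-fold higher in mSC than in nmSC (log2 fold change 0.74, SE 0.11, edgeR adjusted p = 1.26e-05). It differed by 0.37 between mSC and allSC (edgeR adjusted p = 0.019) and by 0.37 between allSC and nmSC (adjusted p = 0.0271), and the latter did not pass with the mouse number as a block (adjusted p = 0.0542). With library size alone its difference between mSC and nmSC was 0.17 (edgeR adjusted p = 0.137). Relative to the median of all tested genes Dync1i2 was 0.90 to 0.91 higher.

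Kif1b (ENSMUSG00000063077, chr4:149176319-149307693, minus strand) encodes a kinesin that carries mitochondria and vesicles, and in oligodendrocytes it is needed to bring myelin basic protein mRNA to the sheath. Its mSC libraries held 218, 185, 188 and 186 CPM and its nmSC libraries 140, 133, 145 and 155 CPM. The gates did not overlap. Kif1b was 1.36-fold higher in mSC than in nmSC (log2 fold change 0.44, SE 0.11, edgeR adjusted p = 0.00439), and turned to -0.12 with library size alone. Its differences of 0.27 between mSC and allSC (edgeR adjusted p = 0.111) and of 0.17 between allSC and nmSC (adjusted p = 0.424) did not pass. Relative to the median of all tested genes Kif1b was 0.60 to 0.61 higher in mSC than in nmSC.

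**Figure D3:**
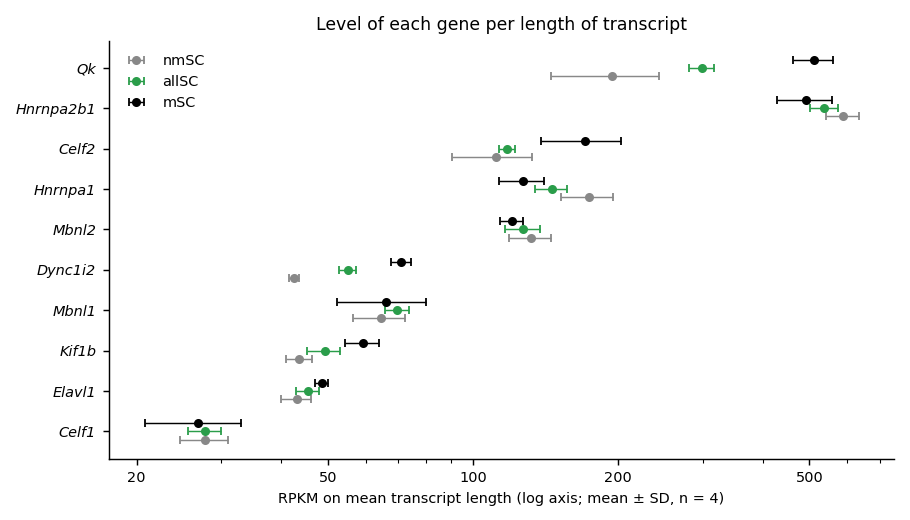
Level of the 10 genes in RPKM (CPM per kilobase of mean transcript length, horizontal log axis) in the 3 gates, with mean ± SD of 4 libraries. Qk goes from 194 RPKM in nmSC to 510 RPKM in mSC and comes level with Hnrnpa2b1 there, while Celf1 is the lowest of the 10 in every gate.

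Levels of different genes can be compared only per length, and RPKM on the mean length of a gene's transcripts was used. In mSC the order from the top was Qk (510 ± 48.7 RPKM, SD, n = 4), Hnrnpa2b1 (493 ± 65.0 RPKM), Celf2 (171 ± 32.4 RPKM), Hnrnpa1 (127 ± 13.7 RPKM) and Mbnl2 (121 ± 6.66 RPKM). Below them were Dync1i2 (71.0 ± 3.46 RPKM), Mbnl1 (66.0 ± 13.9 RPKM), Kif1b (59.1 ± 4.76 RPKM), Elavl1 (48.5 ± 1.52 RPKM) and Celf1 (26.9 ± 6.08 RPKM). Of the neighbours in this order, Qk and Hnrnpa2b1, Hnrnpa1 and Mbnl2, Dync1i2 and Mbnl1, and Mbnl1 and Kif1b differed by less than the larger SD of the pair. In nmSC Hnrnpa2b1 (587 ± 46.1 RPKM) was above Qk (194 ± 48.7 RPKM) and Hnrnpa1 (174 ± 21.5 RPKM), and the last of these pairs differed by less than the SD of Qk. With the union of all exons as the length the order changed, and Mbnl1 was then the lowest of the 10 at 8.26 RPKM in mSC. By RPKM Qk lay at percentile 99.1 of the tested genes in mSC and at percentile 97.9 in nmSC.

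A ratio of genes within a library does not move with the scaling, so pairs of related genes were compared in this way by a two-sided exact permutation test. None of the 12 tests (4 pairs of genes, 3 comparisons of gates) passed after Benjamini-Hochberg adjustment, and with 4 libraries against 4 the smallest p that the permutations can give is 0.0286. Even a ratio that separates 2 gates fully cannot pass the adjustment over 12 tests by itself. That none passed therefore does not show that the ratios are alike. The lowest was for Kif1b over Dync1i2 between allSC and nmSC, where the log2 ratio was 0.21 to 0.41 in the allSC libraries and 0.44 to 0.66 in the nmSC libraries. The difference of the log2 ratio was -0.20 (exact permutation p = 0.0286, adjusted p = 0.229). Between mSC and nmSC the same ratio differed by -0.30 (exact permutation p = 0.0857, adjusted p = 0.257). The ratio of Celf1 to Celf2 was 0.323, 0.187, 0.280 and 0.132 in mSC and 0.305, 0.307, 0.517 and 0.308 in nmSC. The log2 ratio of the CELF genes differed by -0.69 (exact permutation p = 0.114, adjusted p = 0.274), with 1 mSC library inside the nmSC range. The ratios of Mbnl1 to Mbnl2 (0.15, exact permutation p = 0.543, adjusted p = 0.686) and of Hnrnpa1 to Hnrnpa2b1 (-0.20, exact permutation p = 0.286, adjusted p = 0.571) overlapped between mSC and nmSC.

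As a description chosen after the values had been seen, and so with no test, Qk was set against Hnrnpa1 within each library, as counts per base of mean transcript length. The ratio was 4.02, 4.45, 3.67 and 4.00 in mSC, 2.11, 1.84, 2.13 and 2.16 in allSC, and 1.44, 1.13, 0.700 and 1.26 in nmSC. The 3 gates were apart. The level of this ratio depends on the length used, since on the union of exons Qk and Hnrnpa1 had means of 167 and 77.2 RPKM in mSC and 63.5 and 106 RPKM in nmSC. Qk over Hnrnpa2b1 was 0.974 to 1.19 in mSC and 0.252 to 0.421 in nmSC.

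**Figure D4:**
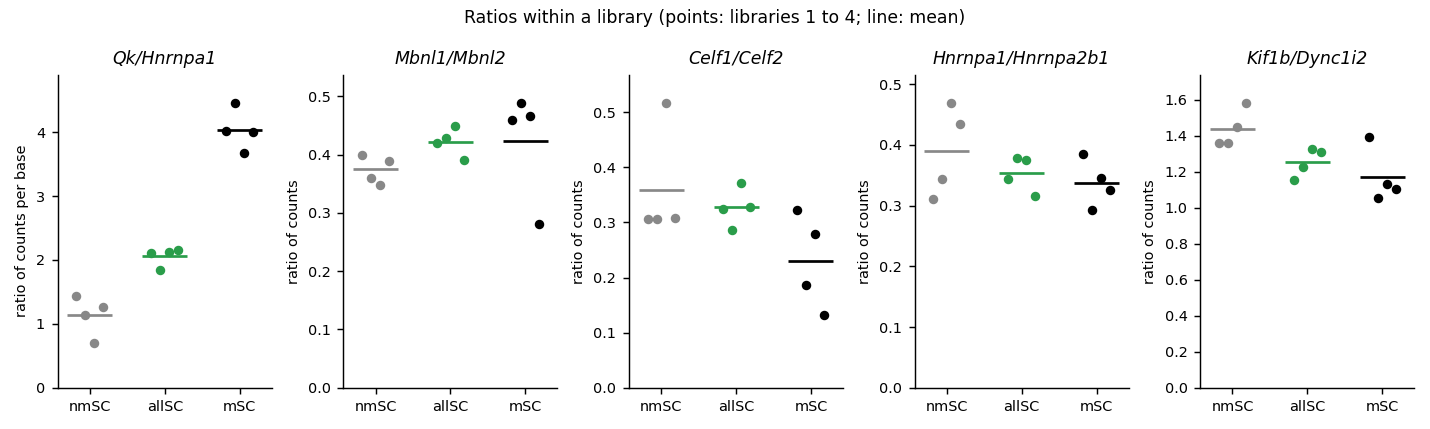
Ratio of paired genes within each library in the 3 gates (points are libraries, lines are means, vertical axes start at 0), as counts per base for Qk over Hnrnpa1 and as counts for the other pairs. Qk over Hnrnpa1 separates the gates (3.67 to 4.45 in mSC, 0.700 to 1.44 in nmSC), and mSC and nmSC overlap in the other panels.

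The 10 genes were then set beside lists of related genes. All counts that follow are for mSC against nmSC by edgeR's quasi-likelihood test with TMM scaling, beside a median difference (log2) of 0.11 in the 10 genes and -0.16 in all tested genes. Among 19 tested paralogs, 2 were higher and 5 lower (median -0.34). Kif1a, a kinesin of the same family as Kif1b, was at 581 ± 19.0 CPM in mSC and 270 ± 20.9 CPM in nmSC (SD, n = 4), which gave a log2 fold change of 1.11 (adjusted p = 7.27e-08). Sf1, a splicing factor that recognizes the branch point and shares its type of RNA-binding domain with Qk, was lower, at 75.1 ± 7.45 CPM against 106 ± 9.66 CPM (log2 fold change -0.49, adjusted p = 0.00406). Hnrnpd, whose protein AUF1 promotes mRNA decay, was also lower (log2 fold change -0.74, adjusted p = 0.000953).

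Of 31 other hnRNPs and splicing regulators, 0 were higher and 8 lower (median -0.21), and with DESeq2's size factors 1 was higher and 8 lower. They included Sfpq (log2 fold change -0.79), a paraspeckle protein, Ptbp1 (-0.56), a repressor of exons that is lowered in neuronal differentiation, and Hnrnph1 (-0.56), which binds G-rich RNA. Of 28 RNA granule and mRNA localization factors, 9 were higher and 6 lower (median 0.28). Cpeb1, which binds a 3′ UTR element and controls polyadenylation and translation, rose from 45.1 ± 6.86 CPM in nmSC to 180 ± 38.6 CPM in mSC (log2 fold change 1.99, adjusted p = 1.1e-08). Stau2 (0.96), a double-stranded RNA-binding protein of transport granules, and Cyfip1 (0.95), a partner of FMRP, were also higher, while Igf2bp3 (-1.27), an mRNA-binding protein of fetal tissues, Ckap5 (-0.77), a microtubule polymerase found in A2 granules, and Tut4 (-0.63), a terminal uridylyltransferase, were lower.

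Dynein, dynactin and kinesin genes were counted in the same way. Of 24 tested dynein and dynactin genes 11 were higher and 2 lower (median 0.47), and of 19 kinesins 11 were higher and 2 lower (median 0.72), beside 20.4% higher and 20.2% lower among all tested genes, and with library size alone the first list turned to 1 higher and 9 lower. Dynlt3, a light chain of dynein, rose from 111 ± 25.3 CPM in nmSC to 358 ± 35.2 CPM in mSC (log2 fold change 1.69, adjusted p = 1.71e-08). Bicd1 (0.86), an adaptor between dynein and cargo, and Dctn6 (0.80), a subunit of dynactin, were higher, and Nde1 (-0.42), a dynein regulator used in cell division, was lower. Kif13b, a kinesin that moves membrane cargo, rose from 24.9 ± 2.07 CPM to 102 ± 18.4 CPM (log2 fold change 2.03, adjusted p = 1.84e-09), Kif3c, a motor of the Kif3 family, was higher by 1.14, and Kif21a, a kinesin that limits the growth of microtubules, was lower (-0.75).

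These list counts also moved with the scaling. With library size alone, the dynein and dynactin list had 1 higher and 9 lower, the kinesins 7 higher and 6 lower, the granule factors 2 higher and 12 lower, the hnRNPs and splicing regulators 0 higher and 29 lower, and the paralogs 1 higher and 14 lower. With library size without the 50 most abundant genes, they were 5 and 3, 8 and 4, 5 and 10, 0 and 25, and 1 and 12, in the same order of lists. Of all 18597 tested genes, 11864 were called with library size alone and 9717 with the 50 most abundant genes left out of it. The distance of each list's median from the median of all tested genes stayed near its value, at 0.63 for dynein and dynactin, 0.88 to 0.90 for kinesins, 0.44 to 0.45 for granule factors, -0.050 to -0.045 for hnRNPs and splicing regulators and -0.22 to -0.18 for paralogs, over the 4 scalings. That these distances held follows from the nearly shared shift of all genes. The 35 genes taken from the lists by the naming rule kept their sign in all of these scalings. Without mSC library 4 the counts were 13 higher and 1 lower, 11 and 1, 12 and 6, 1 and 11, and 2 and 7.

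The 14 myelin transcripts and described Qk targets were all higher in mSC (14 of 14, median 1.96), and with library size alone 12 were higher and 1 lower. Pmp22 (log2 fold change 3.61) and Mbp (3.20) encode proteins of the sheath, and Nfasc (3.53) encodes an adhesion molecule of the node and paranode. Egr2, whose ACTAAC copies are printed above, had a log2 fold change of 0.50. Pmp22 and Nfasc held no copy, so both genes with and without the word were higher.

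**Figure D5:**
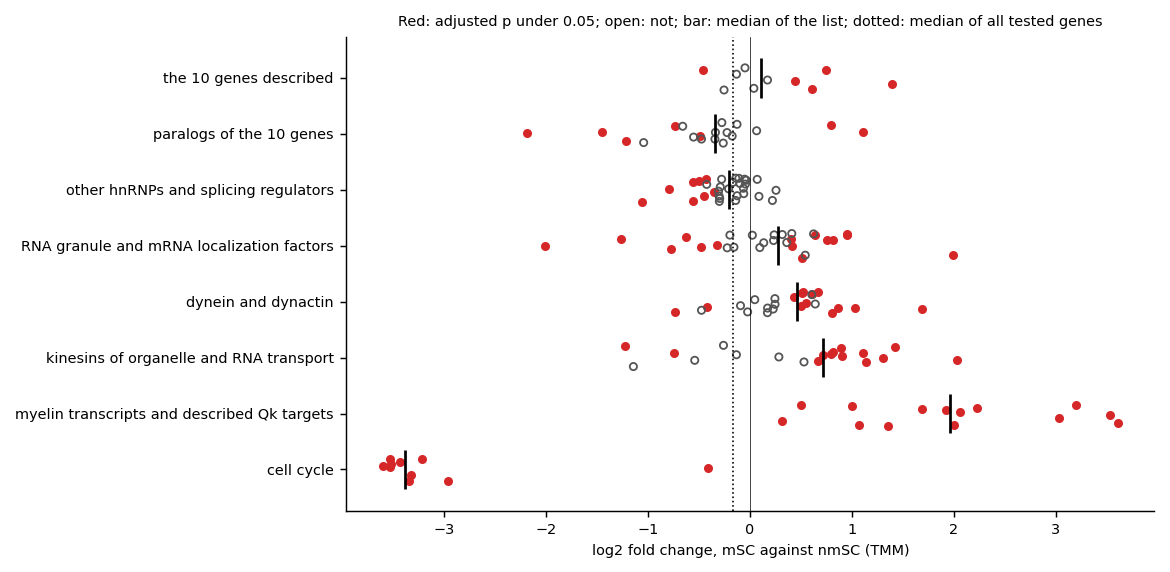
Log2 fold change between mSC and nmSC (horizontal axis, TMM scaling) of the 10 genes and of 7 gene lists, 1 point per tested gene, red where the adjusted p was under 0.05. Bars give the median of each list (0.11 for the 10 genes, 0.72 for kinesins, 1.96 for myelin transcripts and Qk targets, -3.39 for cell cycle genes) and the dotted line that of all tested genes (-0.16), and other scalings shift all points together (library size alone by about the change of that line, to -0.73).

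Other properties of the cells moved with the same gates. The summed CPM of 10 cell cycle genes was 163 to 261 in mSC, 856 to 1009 in allSC and 1367 to 1730 in nmSC, and 10 of 10 were lower in mSC than in nmSC (median log2 fold change -3.39, for example Top2a, at 27.1 ± 5.62 CPM and 311 ± 39.7 CPM). Genes that respond to tissue dissociation were lower in mSC for 4 of 10, led by Ier2 (-2.52), Egr1 (-1.94) and Jun (-1.31). The other 6 were not called. Among all tested genes 40.5% were called and 20.2% were lower. The summed neuronal, endothelial, immune and mural lists were at 43.1 CPM or less, but some differed between the gates. The neuronal list was at 30.8 to 43.1 CPM in mSC and 15.3 to 23.5 CPM in nmSC, with Nefl (2.27) and Nefm (2.02) higher in mSC and Rbfox3 (-1.37) lower. The endothelial list was at 20.4 to 29.6 CPM in mSC and 8.18 to 13.4 CPM in nmSC, with Kdr (1.80) higher and Pecam1 (-0.95) and Tek (-1.12) lower. The immune list was at 14.7 to 23.6 CPM in mSC and 20.1 to 31.6 CPM in nmSC (Cd68 lower, -1.34), the mural list was at 4.00 to 7.74 CPM and 6.81 to 7.66 CPM (Myh11 lower, -1.09), and no gene of these lists was at 0 in every library. The fibroblast and perineurial list summed to 488 to 1100 CPM in mSC and 2971 to 4156 CPM in nmSC, most of it from Col1a1 (788 and 3427 CPM), while Pdgfra was at 2.34 and 2.35 CPM. In the same list Col2a1 was lower in mSC (2.31 and 5.26 CPM, edgeR adjusted p = 0.00197) and Slc2a1 higher (56.9 and 37.0 CPM, adjusted p = 0.00062). The Schwann cell marker Sox10 was at 267 CPM in mSC and 266 CPM in nmSC. The part of cell division, the dissociation response and the markers of other cells in the differences of the 10 genes was not tested.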

How the data were processed

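Polyadenylated RNA of sorted SCs was made into cDNA by Smart-Seq2 and sequenced. After trimming, the authors used STAR for alignment (version 2.6.1c in the submitters' processing notes) and featureCounts for counting, and deposited raw counts per gene for 25700 genes. The notes name build GRCm38.p5, while the paper's methods name a human build, and the identifiers are those of mouse. Strand, multi-mapping and overlap settings are not given in the sources used here.

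From the deposited counts, TMM factors and CPM were computed with edgeR 4.0.16 in R 4.3.3, genes were filtered by expression per gate (18597 kept), and the quasi-likelihood test was applied to pairs of gates in 1 fit of the 12 libraries, with Benjamini-Hochberg adjustment over all tested genes. The paper states no differential test for these data. Ratios used (count + 0.5) and exact permutation tests (scipy 1.17.1). Symbols, positions and transcripts came from GENCODE M21 (25664 identifiers matched). Intervals are at 95%, and floors cover counting error only, since PCR copies are not independent molecules. The edgeR step was tested on simulated counts in which equal numbers of genes were raised and lowered. They held no shift in composition between the gates, so they did not test the choice of scaling. The permutation test was tried on values with a known answer.

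The 10 genes and all lists were chosen with earlier results of these data known. The search for ACTAAC, the ratios with Qk, the words shared between genes and the list counts under other scalings were chosen after values had been seen. From each list up to 3 genes per direction are named, those with the largest change between mSC and nmSC that passed the test, with a mean of at least 10 CPM and the same direction in all 4 mice, and Egr2, Pdgfra, Sox10 and the markers of other cells that passed the test are named besides. Tut4 was matched from an older symbol. The subject label gives each library the number of its mouse, so numbers pair the libraries of the gates. Deviations of same-numbered libraries from the gate means correlated at -0.23 to 0.25 (4 of 12 over 0.1). No 2 libraries agreed within sampling noise.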

Additional observations from a re-analysis of the deposited data

Results flagged for a closer look

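Each set of 4 libraries was examined for a value far from the other 3 by Dixon's criterion at 95%, and 5 of 42 sets of CPM or log2 ratios were marked, where chance marks about 1 in 20. Mbnl1 was at 106 CPM in mSC library 4, while the other mSC libraries held 165 to 174 CPM. Mbnl2 was at 337 CPM in mSC library 2, against 373 to 380 CPM. Kif1b was at 218 CPM in mSC library 1, against 185 to 188 CPM. The log2 ratio of Mbnl1 to Mbnl2 was -1.83 in mSC library 4, against -1.13 to -1.03. The log2 ratio of Celf1 to Celf2 was -0.95 in nmSC library 3, against -1.71 to -1.70. Library 4 of mSC is also the one that stood apart over all genes.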

How the results depend on the processing

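Between mSC and nmSC the number of genes called out of the 10 stayed at 5 to 7 in every setting tried and at 5 to 6 when each library was left out in turn. The genes called and their directions did not stay the same. With TMM scaling 4 were higher and 1 lower, with library size without the 50 most abundant genes 2 and 4, and with library size alone 1 and 6. Between mSC and allSC the number called was 3, and leaving out 1 library gave 1 to 4. It was 1 without allSC library 3, where Celf2 (adjusted p = 0.053) and Dync1i2 (adjusted p = 0.0668) no longer passed, and 4 without mSC library 4, where Kif1b passed (0.31, adjusted p = 0.0405). Dync1i2 also lost this call without allSC library 2 or mSC library 2. Between allSC and nmSC it was 2, and leaving out 1 library gave 1 to 2, since Dync1i2 no longer passed without any 1 of allSC libraries 1, 2, 3 and 4 and nmSC libraries 2 and 4. It was 1 with library size without the 50 most abundant genes (Hnrnpa1, lower) and 1 with the mouse number as a replicate block, which changed no other call of the 10. With an offset of 5 counts the ratios kept their direction and their side of an unadjusted permutation p of 0.05. With a library left out no p was computed for the ratios. Their direction was then kept but for Celf1/Celf2 between allSC and nmSC and Mbnl1/Mbnl2 between mSC and allSC. The differences of these, near 0, spanned -0.16 to 0.090 and -0.11 to 0.16.

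Signs that turned were of differences whose intervals held 0 with TMM scaling, or of Kif1b. With library size alone, between mSC and nmSC, Mbnl1 was at -0.51, Elavl1 at -0.40 and Kif1b at -0.12. Between mSC and allSC, Elavl1 was at -0.21 and Kif1b at -0.037. Between allSC and nmSC, Mbnl1 was at -0.14, Celf2 at -0.18, Elavl1 at -0.18 and Kif1b at -0.085. Without the 50 most abundant genes, Mbnl1 was at -0.31 and Elavl1 at -0.19 between mSC and nmSC, Elavl1 at -0.11 between mSC and allSC, and Mbnl1 at -0.040, Celf2 at -0.079 and Elavl1 at -0.079 between allSC and nmSC. Celf1 turned to 0.015, 0.012 and 0.0035 in the 3 comparisons with DESeq2's size factors, to 0.016, 0.012 and 0.0034 with DESeq2's Wald test, and to 0.012 between allSC and nmSC with no filter.

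With 1 library left out, Celf1 ranged from -0.18 to 0.074 (mSC against nmSC), -0.17 to 0.098 (mSC against allSC) and -0.052 to 0.058 (allSC against nmSC). Mbnl1 ranged from -0.0094 to 0.19 (mSC against nmSC) and -0.12 to 0.094 (mSC against allSC), Mbnl2 from -0.10 to 0.018 and Celf2 from -0.034 to 0.19 (both allSC against nmSC). Over all tested genes, library size alone raised the number called from 7540 to 11864 (mSC against nmSC) and from 1928 to 2951 (allSC against nmSC). With library size without the 50 most abundant genes and with library size alone, the number called rose from 7 to 13 and 15 in the paralogs, from 8 to 25 and 29 in the hnRNPs and splicing regulators, from 1 to 2 and 3 in the immune list and from 1 to 2 and 2 in the mural list, and in dynein and dynactin it was 13, 8 and 10. The cause of these changes was not tested. All 10 genes lay above the floor of 3 counts in every library.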
